A study of Mus musculus with 4 samples.

Results

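De novo lipogenesis is the synthesis of fatty acids from carbohydrate, and 10 genes of it were followed here: Srebf1, Mlxipl, Pklr, Acly, Me1, Acaca, Acacb, Fasn, Thrsp and Gpam. The members were chosen by name, as every probe other than a control whose gene name was one of the 10, which gave 19 probes for 10 of the 22327 genes named on the array. The data were 4 arrays, 1 each for labelled-knockout liver, wild-type liver, labelled-knockout white adipose tissue (WAT) and wild-type WAT. All mice were C57BL/6N and 4 weeks old, the knockout genotype was Pnpla7-/- (Pnpla7 encodes a lysophospholipase), and RNA of 5 animals was pooled for each array. The design therefore asked how loss of Pnpla7 relates to expression in each tissue, with 1 array per group, so that no test could be made and no ratio has an error across animals.

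The pathway turns citrate exported from mitochondria into acetyl-CoA, carboxylates it to malonyl-CoA and builds palmitate from that, using NADPH. In liver it converts dietary sugar into fat that is stored or exported, and insulin and glucose raise its enzymes through the transcription factors SREBP and ChREBP. In fat the same enzymes feed local triglyceride storage, and brown adipocytes also carry them.

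A level is given as the processed signal relative to the array's 75th percentile, and for a gene with several probes as the geometric mean over those measured. A ratio is the log2 of labelled knockout over wild type within a tissue. A probe was measured in a tissue when it was well above background on both of its arrays. Different probes of 1 gene differed in ratio with a pooled SD of 0.20 over 4512 genes of the liver pair and 0.23 over 4746 genes of the WAT pair, and the scanner software's error model gave a median error of 0.205 for a ratio in each tissue. These cover measurement error only. Genes are counted as higher or lower where the ratio reached 1.5-fold (0.585 on the log2 scale), and 2-fold is given beside it.

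Before the results, the arrays were set against their labels. The single Pnpla7 probe had a level of 7.98 in labelled-knockout liver, against 9.04 in wild-type liver (ratio -0.18), and 0.372 in labelled-knockout WAT, against 0.739 in wild-type WAT (ratio -0.99). The sources used here do not say which part of the gene was removed, so this probe does not settle the genotype, and the arrays are called labelled knockout throughout. Liver markers had a summed level of 1594 in labelled-knockout liver, against 1854 in wild-type liver. The extraction protocol in the labels names livers alone, also for the WAT samples. The WAT arrays nevertheless carried adipocyte markers, at a summed level of 870 in labelled-knockout WAT and 805 in wild-type WAT, and 9.75 in labelled-knockout liver and 8.70 in wild-type liver. All 10 adipocyte markers were above background on both WAT arrays, and Adipoq, Lep and Cfd on neither liver array.

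In labelled-knockout liver every one of the 10 lipogenesis genes had a ratio below 0, as did 55.8% of the 15568 genes measured there (44.2% lay above 0). At least 1.5-fold lower than in wild-type liver were 7 members, against 3.72% of genes, and 0 members were at least 1.5-fold higher, against 4.48%. After normexp background correction the lower members were 6 (offset 50) and 7 (offset 0), but the share of all genes at least 1.5-fold lower was then 18.8% and 23.9%. Me1 and Pklr were 2.14-fold and 2.11-fold lower, past the 2-fold limit that 0.886% of genes reached downwards and 1.75% upwards. In labelled-knockout WAT the 9 members measured on both arrays had ratios above 0 (Thrsp fell to -0.07 after quantile normalization and -0.01 after cyclic loess), as did 52.8% of the 16131 genes measured there, with 47.2% below 0. At least 1.5-fold higher than in wild-type WAT were 5 members (3 after cyclic loess, where Me1 stood at 0.56 and Acly at 0.50), against 6.19% of genes, and 0 members were at least 1.5-fold lower, against 7.57%. Acacb led at 2.72-fold, the one member past 2-fold, against 2.16% of genes upwards and 2.01% downwards. Of all genes past 1.5-fold in liver, 54.6% were higher, a share that was 8.56% and 7.39% after normexp with offsets of 50 and 0; the members' median stayed below that of all genes under each. The labelled-knockout WAT array also held more brown adipocyte marker signal (a summed level of 223 in labelled-knockout WAT, against 63.8 in wild-type WAT) and more skeletal muscle marker signal (37.9 in labelled-knockout WAT, against 2.80 in wild-type WAT), and the part of these in the WAT ratios was not tested. In bulk tissue, fewer cells of a type and less RNA per cell cannot be told apart.

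**Figure D1:**
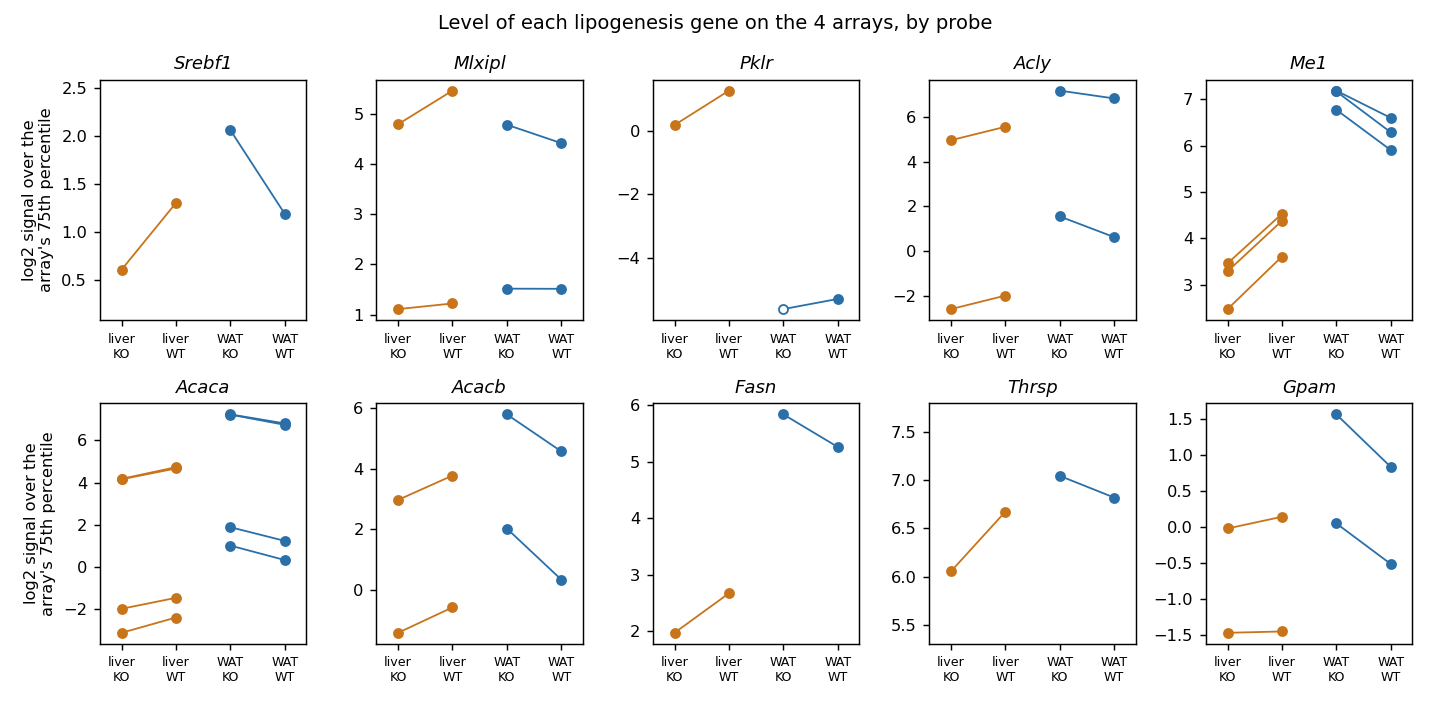
Level of each lipogenesis gene on the 4 arrays (y axis, log2 of the signal over the array's 75th percentile, with a separate range per panel), 1 line per probe joining labelled knockout (KO) to wild type (WT) within liver (orange) and WAT (blue). An open circle marks a signal not well above background. The liver lines climb to the right, except the lower Gpam probe, which is nearly level. The WAT lines fall to the right, except Pklr, where the KO signal was not well above background, and the lower Mlxipl probe, which is level. Thrsp in WAT turned sign under 2 other scalings.

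The starts of 4 members are shown as examples of windows that hold the motif CCAAT. Each is the 250 bases before a start site from RefSeq (GRCm38.p6), on the gene's strand. Capitals mark CCAAT or its reverse complement ATTGG. The lines are Fasn at chr11:120824548-120824797 (minus strand), Acacb at chr5:114165268-114165517 (plus strand), Thrsp at chr7:97417551-97417800 (minus strand) and the downstream one of the Pklr start sites at chr3:89136373-89136622 (plus strand).
Fasn: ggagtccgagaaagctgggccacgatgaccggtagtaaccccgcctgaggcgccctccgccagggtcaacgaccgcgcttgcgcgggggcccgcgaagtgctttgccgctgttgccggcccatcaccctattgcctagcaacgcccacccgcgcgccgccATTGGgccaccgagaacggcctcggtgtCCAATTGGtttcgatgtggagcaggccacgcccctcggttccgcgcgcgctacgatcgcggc
Acacb: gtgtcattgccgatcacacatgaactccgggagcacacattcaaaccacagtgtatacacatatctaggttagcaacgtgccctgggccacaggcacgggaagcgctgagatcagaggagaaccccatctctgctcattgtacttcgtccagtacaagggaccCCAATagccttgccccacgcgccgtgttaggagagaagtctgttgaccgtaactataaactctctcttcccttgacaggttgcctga
Thrsp: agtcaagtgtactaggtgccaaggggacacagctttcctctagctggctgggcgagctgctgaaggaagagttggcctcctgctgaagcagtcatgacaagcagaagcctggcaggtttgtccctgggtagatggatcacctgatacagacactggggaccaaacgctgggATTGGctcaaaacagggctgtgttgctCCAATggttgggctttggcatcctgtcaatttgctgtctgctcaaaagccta
Pklr: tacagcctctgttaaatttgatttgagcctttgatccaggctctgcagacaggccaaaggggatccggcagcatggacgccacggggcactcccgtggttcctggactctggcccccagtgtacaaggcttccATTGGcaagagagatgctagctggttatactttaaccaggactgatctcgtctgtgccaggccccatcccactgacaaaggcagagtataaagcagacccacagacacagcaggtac
Fasn held CCAAT at -90, -62 and -59 from the start site, the last of these overlapping as CCAATTGG, which reads as the motif on both strands. Thrsp held it at -79 and -52, Acacb at -87 and Pklr at -117. Over the members, 9 of 16 windows (56.2%) held CCAAT on either strand, against 33.8% of 32851 windows of the same length. The 9 came from 8 of 10 genes, but some genes had several windows and no share by gene was computed for comparison. The windows of Acaca and Acly did not hold it. CCAAT is bound by the factor NF-Y, a common partner of SREBP. The E-box CACGTG was in 1 of 16 member windows, from Mlxipl, and in 6.02% of all windows. The sterol regulatory core TCACNCCAC was in another Mlxipl window and in 1.05% of all. A direct repeat of AGGTCA with 4 bases between was in 0 member windows and in 0.0152% of all, and a pair of CACGTG with 5 bases between, a strict form of the carbohydrate response element, in 0 of all. CCAAT did not overlap any other motif searched within these 4 windows. These are matches of letters in a short window and show no binding.

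Srebf1 encodes SREBP, the insulin-responsive activator of the pathway's enzymes. Its single probe had a level of 1.52 in labelled-knockout liver, against 2.47 in wild-type liver, and 4.17 in labelled-knockout WAT, against 2.28 in wild-type WAT. Labelled-knockout liver was thus the lowest of the 4 arrays and labelled-knockout WAT the highest. The ratios were -0.69 in liver, 61.8% of wild type, and 0.87 in WAT, 1.83-fold. In wild-type mice WAT and liver were nearly level for this gene (0.925-fold, WAT over liver), while in labelled-knockout mice WAT was 2.74-fold above liver.

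Mlxipl encodes ChREBP, the glucose-responsive activator. Its probe starting at base 3101 of the transcript had log2 levels of 4.79 in labelled-knockout liver, against 5.46 in wild-type liver, and 4.78 in labelled-knockout WAT, against 4.42 in wild-type WAT. That probe gave ratios of -0.67 and 0.37. The probe starting at base 3591 had 1.11 in labelled-knockout liver, against 1.22 in wild-type liver, and 1.52 in labelled-knockout WAT, against 1.51 in wild-type WAT, so its ratios were -0.11 and 0.00. The probes thus disagreed by more than the usual spread in liver, with an SD of 0.39. Averaged, the gene stood at -0.39 in liver and 0.18 in WAT and passed 1.5-fold in neither. The last 30 bases of the probe at 3591 are shown because they hold a stretch of the B1 repeat, which is scattered across the mouse genome, in capitals.
Mlxipl probe, bases 31 to 60: atgcacacCTTTAATCCCAGtacttgggag
Of 39429 probes, 20 held these capitals, and those measured had a median ratio of -0.16 in liver (17 probes) and -0.01 in WAT (18 probes). The part of this stretch in the flat ratios of the probe was not tested.

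Pklr encodes the pyruvate kinase of liver, the last enzyme of glycolysis and a textbook target of ChREBP. Its level was 1.13 in labelled-knockout liver, against 2.39 in wild-type liver, which is 47.4% of wild type and a ratio of -1.08. In WAT its signal was near the floor, with log2 levels of -5.60 in labelled-knockout WAT, not well above background, and -5.28 in wild-type WAT. Pklr is therefore the one member without a WAT ratio. Its wild-type WAT signal was 1.25-fold above the labelled-knockout one. That difference (0.32 on the log2 scale) was smaller than its error of 0.42 in the scanner software's error model, so no direction is given. The probe is shown because it alone stands for the gene. It lies at chr3:88948907-88949425 on the plus strand (mm9), a span of 519 bases for a 60-base probe.
Pklr probe, base 1636 of the transcript: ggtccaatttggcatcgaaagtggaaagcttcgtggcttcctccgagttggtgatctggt

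Acly encodes ATP citrate lyase, which makes cytosolic acetyl-CoA from citrate. Its probe starting at base 1597 had log2 levels of -2.59 in labelled-knockout liver, against -1.99 in wild-type liver, and 1.55 in labelled-knockout WAT, against 0.63 in wild-type WAT. The probe starting at base 4359 had 4.96 in labelled-knockout liver, against 5.56 in wild-type liver, and 7.17 in labelled-knockout WAT, against 6.83 in wild-type WAT. The liver ratios were alike, -0.61 and -0.60, while the WAT ratios were 0.92 and 0.35 with an SD of 0.41. As a mean Acly was 1.52-fold lower in liver and 1.55-fold higher in WAT, and the WAT value passes 1.5-fold with the probe at 1597 but not with that at 4359. The probe with the larger WAT ratio lies at chr11:100365518-100365577 on the minus strand (mm9).
Acly probe, base 1597 of the transcript: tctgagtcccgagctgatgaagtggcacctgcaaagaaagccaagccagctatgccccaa

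Me1 encodes malic enzyme, which supplies NADPH for fatty acid synthesis. It was the lowest member in liver, with a level of 8.41 in labelled-knockout liver, against 18.0 in wild-type liver. Its WAT level was 132 in labelled-knockout mice, against 76.9 in wild-type mice. All 3 probes were lower in labelled-knockout liver, at -1.07, -1.13 and -1.09, and all 3 were higher in labelled-knockout WAT, at 0.87, 0.88 and 0.59. Among all genes measured in liver, 0.674% lay as low as Me1 or lower.

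Acaca encodes acetyl-CoA carboxylase, whose product malonyl-CoA is the building unit of palmitate. Its probe starting at base 6880 had log2 levels of -3.11 in labelled-knockout liver, against -2.38 in wild-type liver, and 1.02 in labelled-knockout WAT, against 0.34 in wild-type WAT. That starting at base 81 had -1.97 in labelled-knockout liver, against -1.45 in wild-type liver, and 1.89 in labelled-knockout WAT, against 1.24 in wild-type WAT. On all 4 probes labelled-knockout liver was below wild-type liver and labelled-knockout WAT above wild-type WAT. The probes starting at bases 2832 and 8971 share 59 bases and are not independent; their liver ratios were -0.51 and -0.55 and their WAT ratios 0.43 and 0.48. The gene's mean ratios of -0.58 and 0.56 lay just inside 1.5-fold in each tissue. The probe at 6880 lies at chr11:84211638-84211697 on the plus strand (mm9) and had the largest ratio of the 4 in each tissue.
Acaca probe, base 6880 of the transcript: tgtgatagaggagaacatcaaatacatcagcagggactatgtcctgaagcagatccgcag

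Acacb encodes the mitochondrial form of the carboxylase, whose malonyl-CoA restrains fatty acid oxidation. Its level was 1.72 in labelled-knockout liver, against 3.04 in wild-type liver, and 14.99 in labelled-knockout WAT, against 5.50 in wild-type WAT. The probe starting at base 7401 had log2 levels of -1.40 in labelled-knockout liver, against -0.56 in wild-type liver, and 2.03 in labelled-knockout WAT, against 0.35 in wild-type WAT. That starting at base 8419 had 2.97 in labelled-knockout liver, against 3.77 in wild-type liver, and 5.78 in labelled-knockout WAT, against 4.57 in wild-type WAT. Both probes were low in labelled-knockout liver, with ratios of -0.84 and -0.80, and high in labelled-knockout WAT, with ratios of 1.68 and 1.22. Acacb had the largest WAT ratio of the members, 1.45, a size that 1.05% of genes reached or passed. The gap of 2.26 between its tissue ratios was matched or passed by 0.376% of the 14896 genes measured in both tissues.

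Fasn encodes fatty acid synthase, which assembles palmitate. Its single probe gave a level of 3.93 in labelled-knockout liver, against 6.38 in wild-type liver, and 57.2 in labelled-knockout WAT, against 38.4 in wild-type WAT. It was 1.62-fold lower in labelled-knockout liver and 1.49-fold higher in labelled-knockout WAT, so the WAT value (0.58) stopped just short of 1.5-fold. Thrsp encodes Spot 14, a thyroid hormone responsive regulator of lipogenesis. Its level was 66.5 in labelled-knockout liver, against 102 in wild-type liver, and 132 in labelled-knockout WAT, against 113 in wild-type WAT. The liver ratio of -0.62 passed 1.5-fold and the WAT ratio of 0.23 did not.

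Gpam encodes the mitochondrial glycerol-3-phosphate acyltransferase, which channels new fatty acids into glycerolipids. Its level was 0.599 in labelled-knockout liver, against 0.637 in wild-type liver, and 1.75 in labelled-knockout WAT, against 1.12 in wild-type WAT. The probe starting at base 3709 had log2 levels of -1.46 in labelled-knockout liver, against -1.44 in wild-type liver, and 0.05 in labelled-knockout WAT, against -0.51 in wild-type WAT. The liver arrays were almost level, with probe ratios of -0.02 and -0.16, and the WAT arrays differed at both probes, with 0.56 and 0.73. Gpam was thus the member with the smallest liver ratio, -0.09, and was 1.56-fold higher in labelled-knockout WAT.

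**Figure D2:**
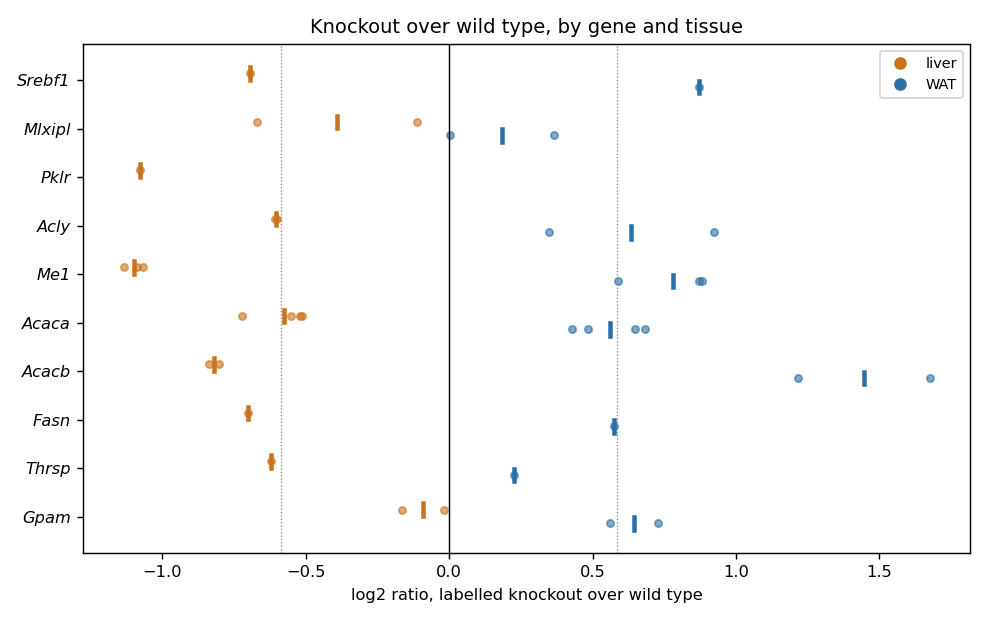
Log2 ratio of labelled knockout over wild type (x axis) for each lipogenesis gene in liver (orange) and WAT (blue), with points for measured probes, a bar for their mean and dotted lines at 1.5-fold. The liver means lie between -1.10 and -0.09 and the WAT means between 0.18 and 1.45; Pklr has no WAT point, and Thrsp in WAT turned sign after quantile and cyclic loess normalization.

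Set side by side, liver and WAT ran in opposite directions at all 9 members measured in both (8 of 9 after quantile or cyclic loess normalization, through Thrsp). Of the 14896 genes measured in both tissues, 32.6% were below 0 in liver and above 0 in WAT, and 24.1% the reverse. Acacb, Acly, Me1 and Srebf1 passed 1.5-fold in both tissues in that sense, 4 of 9 members against 0.537% of genes, and 0.658% of genes did so in the reverse sense. After cyclic loess 2 members did, without Me1 and Acly, and after normexp 5 did, when the share of all genes was 0.92% (offset 50) or 1.62% (offset 0). The 1.5-fold limit was passed in neither tissue by 2 members, Acaca and Mlxipl. The median ratio of the members was -0.66 in liver, against -0.03 over all genes, and 0.64 in WAT, against 0.02 over all genes. By probe, 19 of 19 were lower in labelled-knockout liver, where the Gpam probe at base 3709 stood at -0.02. In labelled-knockout WAT 18 of 18 measured were higher, where the Mlxipl probe at base 3591 stood at 0.00. Probes of 1 gene on the same arrays are not independent, so these counts add nothing to those by gene. The share over all probes was not counted.

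The order of the liver ratios began with Me1 and Pklr, followed by Acacb, by the close group of Fasn, Srebf1, Thrsp, Acly and Acaca, then by Mlxipl, and ended with Gpam. Of neighbours in this order, only Pklr and Acacb, and Mlxipl and Gpam, lay farther apart than the SD between probes of 0.20. In WAT the order ran from Acacb through Srebf1, Me1, Gpam, Acly, Fasn and Acaca to Thrsp and Mlxipl. There only Acacb and Srebf1, and Acaca and Thrsp, lay farther apart than that tissue's SD of 0.23.

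The WAT-over-liver fold was larger in labelled-knockout than in wild-type mice for each of the 9 members. This follows from their opposite signs in the tissues and is not a separate result. Fasn was 14.6-fold higher in WAT than in liver in labelled-knockout mice, against 6.02-fold in wild-type mice. Me1 was 15.7-fold higher in WAT in labelled-knockout mice, against 4.27-fold in wild-type mice. For Acacb the WAT-over-liver values were 8.70-fold in labelled-knockout mice and 1.81-fold in wild-type mice. Acaca stood at 11.5-fold in labelled-knockout mice and 5.23-fold in wild-type mice, Acly at 9.05-fold in labelled-knockout mice and 3.84-fold in wild-type mice, and Gpam at 2.93-fold in labelled-knockout mice and 1.76-fold in wild-type mice. Thrsp, at 1.99-fold in labelled-knockout mice and 1.11-fold in wild-type mice, and Mlxipl, at 1.15-fold in labelled-knockout mice and 0.77-fold in wild-type mice, differed least between the tissues in labelled-knockout mice. The WAT ratio exceeded the liver ratio by at least 1 on the log2 scale in 6 of 9 members, against 3.51% of all genes (4.63% lay as far the other way), with a member median of 1.24.

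**Figure D3:**
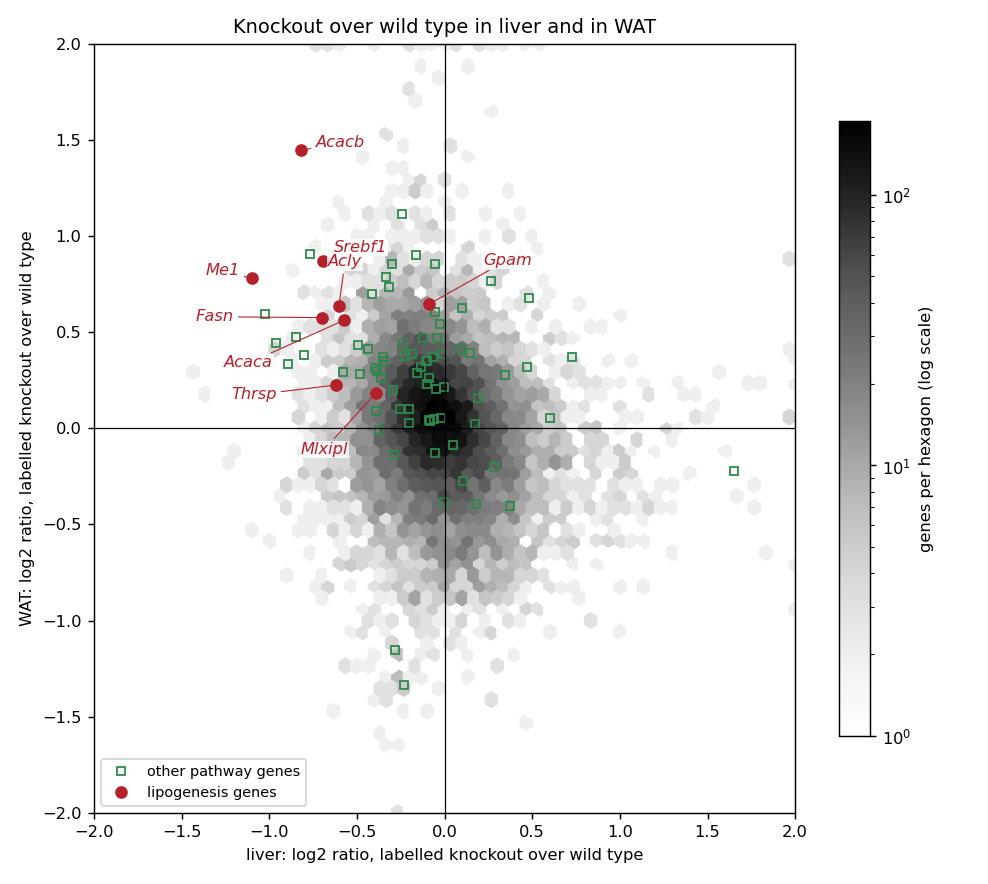
Log2 ratio of labelled knockout over wild type in liver (x axis) and WAT (y axis) for 14896 genes (grey hexagons, shade by gene number on a log scale), other pathway genes (green squares) and lipogenesis genes (red, named). Values past 2 in either direction, from 98 genes, are drawn at the edge; the 9 lipogenesis genes measured in both tissues lie in the upper left part, though Thrsp fell below 0 in WAT under 2 other scalings.

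The other genes around the pathway were read from 8 lists, 72 genes in all, of which 71 were measured in both tissues. Their median ratios were -0.13 in liver and 0.32 in WAT. The combination of below 0 in liver and above 0 in WAT was seen in 48 of 71 (40 to 49 over the alternative settings), and the reverse in 6, where 32.6% and 24.1% of all genes did so. Khk and Elovl6 passed 1.5-fold in both tissues, lower in labelled-knockout liver and higher in labelled-knockout WAT, and 0 genes did so the other way round, against 0.537% and 0.658% of all genes.

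Carbon supply held 12 genes. In liver 2 were at least 1.5-fold lower, Khk (fructokinase, -1.03) and Acss2 (cytosolic acetyl-CoA synthetase, -0.96), and 0 higher, with Slc2a4 (an insulin-sensitive glucose transporter) at -0.49. In WAT 5 of 11 were higher, Pdha1 (pyruvate dehydrogenase, 0.90), Slc25a1 (the citrate carrier, 0.86), Gpi1 (0.85), Pfkl (phosphofructokinase, 0.77) and Khk (0.59). Among 5 genes of NADPH supply, G6pdx (glucose-6-phosphate dehydrogenase) was lower in liver at -0.90, with Tkt at -0.38 and Idh1 at -0.37, while 0 passed 1.5-fold in WAT, where Pgd stood at 0.41 and Taldo1 at 0.35.

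The 6 genes of elongation and desaturation were split in liver. Elovl6, which extends palmitate, was lower at -0.77, Scd1 (the main liver stearoyl-CoA desaturase) stood at -0.58 just inside 1.5-fold, and Scd2 (1.65) and Fads2 (0.72) were higher. In WAT Elovl6 (0.91) and Elovl5 (0.79) were higher, with Fads2 at 0.37 and Scd1 at 0.30. Of 8 genes of glycerolipid synthesis, Lpin1 (a phosphatidate phosphatase) was lower in liver at -0.85, with Agpat2 at -0.48 and Dgat2 at -0.40, and Dgat1 (a triglyceride-forming acyltransferase) was higher in WAT at 0.60, with Lpin1 at 0.48.

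Among 4 other targets of SREBP or ChREBP, Txnip (a glucose-induced inhibitor of thioredoxin) was lower in liver at -0.80. Pnpla3 (a lipid droplet protein) was lower in WAT at -1.16, opposite to the lipogenesis genes there, and stood at -0.29 in liver. Of 18 upstream regulators, 16 were below 0 in liver with 0 past 1.5-fold (Thrb -0.44, Ppargc1b -0.42, Insig1 -0.36), and 15 were above 0 in WAT with 1 past it, the coactivator Ppargc1b at 0.70. Irs2 and Akt2, which carry the insulin signal, stood at 0.47 and 0.44 in WAT.

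Of 10 genes that control the carboxylases, Trib3 was higher in liver (0.60) and Prkaa2, a catalytic subunit of AMP-activated kinase, was higher in WAT (0.62), with Mlycd (malonyl-CoA decarboxylase) at 0.54. The 9 paralogues of the members had medians of 0.11 in liver and 0.20 in WAT. In liver 0 paralogues passed 1.5-fold, with Pkm at 0.48, Gpat3 at 0.47 and Srebf2, the cholesterol-side SREBP gene, at 0.37. In WAT Me3 (1.12), Gpat4 (0.74) and Pkm (0.68) were higher and Srebf2 stood at -0.40.

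**Figure D4:**
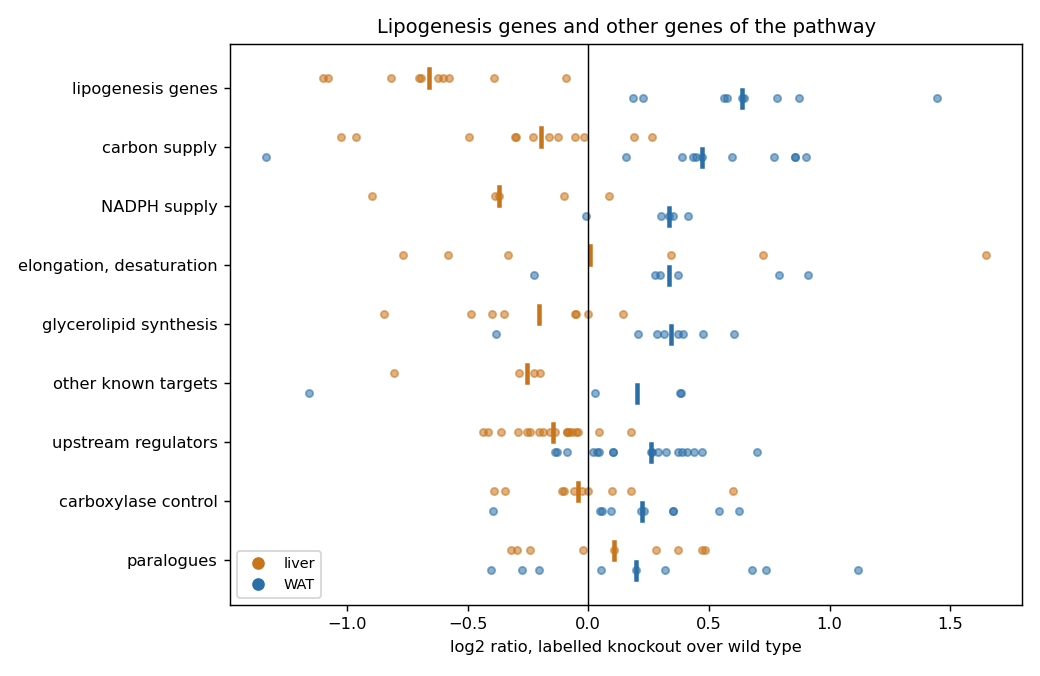
Log2 ratio of labelled knockout over wild type (x axis) for the lipogenesis genes and 8 lists of other pathway genes in liver (orange) and WAT (blue), with a point per measured gene and a bar at the median. The lipogenesis medians of -0.66 and 0.64 lie farther from 0 than those of each other list shown, in the main setting.

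Markers of some other cell types were also higher in labelled-knockout WAT, while those of others were lower. All 10 skeletal muscle markers were at least 2-fold higher in labelled-knockout WAT, led by Pvalb (4.79), Ttn (4.76) and Myh4 (4.73). Of 10 brown adipocyte markers 8 were at least 2-fold higher, led by Elovl3 (5.05), Ucp1 (3.04) and Dio2 (2.98). Mammary epithelial markers summed to 8.80 in labelled-knockout WAT, against 2.70 in wild-type WAT. Their median ratio there was 0.52 over the 9 measured, with 3 past 2-fold upwards and 0 downwards. Wfdc2 had the largest ratio (6.87), from a wild-type WAT signal near the floor (log2 level -5.52). Krt14 alone lay below 0, at -0.23. Epcam was well above background on the labelled-knockout WAT array alone, and Csn3 on the wild-type one alone. Elf5, Csn2 and Wap were not well above background on either WAT array. The adipocyte list had a median of 0.15 in WAT, with Npr3 (-2.92) and Lep (-1.99) lower.

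Macrophage markers had a median of -0.66 in WAT and a summed level of 6.08 in labelled-knockout WAT, against 8.40 in wild-type WAT. Of 7 measured there, 6 were below 0, with Lyz2 lowest at -1.18, while Cd14 was higher at 1.46. Hepatocyte markers had a median of -1.03 there, with 7 of 10 at least 1.5-fold lower, although their sum was 139 in labelled-knockout WAT, against 95.3 in wild-type WAT. Cyp2e1, named after its value was seen, was the 1 hepatocyte marker at least 1.5-fold higher (0.97). Its log2 level, 6.86 in labelled-knockout WAT against 5.89 in wild-type WAT, was the highest of the list there. Cyp2e1 alone made up most of both sums. The part of these further cell types in the WAT ratios was not tested either.

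In liver, hepatocyte markers had a median of -0.26 and 0 of 10 passed 1.5-fold. Macrophage markers had a median of 0.24, with Trem2 (2.45) and Itgax (1.26) at least 2-fold higher, and a summed level of 19.1 in labelled-knockout liver, against 19.4 in wild-type liver. The brown adipocyte list had Cidea, a lipid droplet gene also found in fatty liver, at 2.44, while Ucp1 and Dio2 were not well above background on either liver array. The part of these shifts in the liver ratios was not tested.

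Genes with a like profile were sought among 14888 genes measured on all 4 arrays, by Euclidean distance between log2 levels centred on each gene's mean. The median profile of 9 members, taken array by array, had a difference between labelled knockout and wild type of -0.82 in liver and 1.33 in WAT, larger in WAT than the ratio of each member but Acacb. Nearest to it were Ttc25 (distance 0.157), Cited4 (0.291), Cyp1a1 (0.306), Tchh (0.312) and Srl (0.365), and of the members Acacb lay at 0.120 and the others between 0.814 and 2.19. It is thus a profile like that of Acacb and not of the other members. The ratios of the 5 genes ran from -0.83 to -0.53 in liver and from 1.02 to 1.69 in WAT. Nearest to Fasn were Gsto2 (0.110, with ratios of -0.71 in liver and 0.54 in WAT), Fam13a (0.138) and Rab40b (0.231), closer than the nearest members, Acaca at 0.284 and Me1 at 0.370. The measure rests on 4 arrays and was not applied to Pklr, which was not measured on all of them.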

How the data were processed

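Intensities were deposited as Agilent Feature Extraction 11.0.1.1 scanner files, per the submitters' processing notes, with the processed signal already background-corrected and not normalized between arrays. Probe coordinates are on mm9. The authors' deposited table held the same signal on a linear scale divided by 1 constant per array (1764, 1470, 1613 and 1690 for labelled-knockout liver, wild-type liver, labelled-knockout WAT and wild-type WAT), with column medians of 0.0751, 0.0737, 0.0875 and 0.0876 and no centring; it served as an alternative. Slide and scan time were shared by all arrays. Neither fat depot nor sex was stated in the sources used.

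From the deposited intensities the log2 signal minus the array's 75th percentile was computed over spots other than controls (43020 of 44397). Between 79 and 110 outlier spots per array were left out, and 0 were saturated. From 65.5% to 72.6% of spots were well above background, and the 75th percentile was 193 to 271 times the mean negative control. Spots were averaged by probe, and a gene's ratio is the mean over probes with more than a 0.5 share of spots well above background on both arrays. Names came from RefSeq (GRCm38.p6): 27217 probes matched by accession, 3574 by symbol, 565 by synonym and 19 as members. The other 8054 matched none and were left out of all gene values, counts and shares. The WAT difference given for Pklr sets its brighter signal against its own dim signal or the lowest signal well above background on the dim array, whichever was higher.

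Python 3.11.15 and R 4.3.3 with limma 3.58.1 were used, and the steps were tested on simulated data. No test across animals was possible. Members, lists and limits were chosen with earlier results of these data known. Named were all members with every probe, up to 4 genes per list and tissue by size of ratio, up to 3 per marker list, Pnpla7, and the nearest profiles, except 1 item that is not reported here; Ucp1, Dio2 and the other markers at background were named for that. Alternatives were normexp background correction (offset 50 or 0), and quantile and cyclic loess normalization. Others were the 75th percentile over probes above background on all 4 arrays, the authors' table, no filter, other probe summaries and kept outliers. A further 2 were chosen after seeing the data.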

Additional observations from a re-analysis of the deposited data

Results flagged for a closer look

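Each of 9 lipogenesis genes had a ratio of labelled knockout over wild type below 0 in liver and above 0 in WAT, with 1 array in each group. Of all genes measured in both tissues, 32.6% had these signs and 24.1% the reverse. Thrsp in WAT fell below 0 after quantile (-0.07) and cyclic loess (-0.01) normalization. The WAT ratio exceeded the liver ratio, on the log2 scale, by 2.26 for Acacb, 1.88 for Me1, 1.57 for Srebf1, 1.28 for Fasn, 1.24 for Acly, 1.14 for Acaca, 0.85 for Thrsp, 0.74 for Gpam and 0.58 for Mlxipl. The difference between the tissues was not tested. Pklr had no WAT ratio. The gap is as large as 1 in 3.51% of all genes measured in both tissues, and the opposite gap in 4.63%.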

How the results depend on the processing

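Under 12 settings, 10 planned and 2 chosen after seeing the data, the median ratio of the members stayed between -0.70 and -0.58 in liver and between 0.50 and 0.68 in WAT. Opposite signs held for 8 to 9 of 9 members. Of 228 member values 2 changed sign, both of Thrsp in WAT (-0.07 with quantile and -0.01 with cyclic loess normalization). Cyclic loess also left 3 members at least 1.5-fold higher in WAT instead of 5, and 2 instead of 4 past 1.5-fold in both tissues. The number at least 1.5-fold lower in liver ran from 5 to 8. Over all genes, those past 1.5-fold in both tissues, lower in labelled-knockout liver and higher in labelled-knockout WAT, numbered 80 in the main setting, 137 with normexp at offset 50, 241 with normexp at offset 0 and 176 with no filter on dim probes, which tests more probes. Normexp moved the liver median of all genes to -0.19 (offset 50) and -0.20 (offset 0), against -0.03, and the share of higher genes among those past 1.5-fold there to 8.56% and 7.39%, against 54.6%; relative to the median of all genes the members stood at -0.42 and -0.43, against -0.62. The cause was not tested. No paired analysis was possible because each group holds 1 array and the labels carry no replicate numbers. With 5 animals pooled on each array, the spread between animals is unknown.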
